A study of Homo sapiens with 6 samples.

Results

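The genes described here encode the protein subunits of the mitochondrial ribosome. They were chosen by name: every row of the gene counts whose NCBI Gene number belongs to a protein-coding gene named MRPL or MRPS and a number, together with DAP3 and PTCD3, with pseudogenes left out. The rule gave 79 of the 29806 genes in the counts, 49 named for the large subunit and 30 assigned to the small subunit. The rule uses names and no measured value, although the group was taken up with earlier results of these data known.

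RNA was sequenced from LNCaP cells, an androgen-responsive human prostate cancer line, in 2 groups of 3 dishes. The LNCaP parental cells carry an unedited PRKRA gene, and the PACT KO cells are 1 clone in which PRKRA, the gene for the double-stranded RNA binding protein PACT, was targeted with CRISPR/Cas9. Both groups were grown in RPMI-1640 medium with 10% fetal bovine serum and were harvested 48 h after plating, with no further treatment. Because the PACT KO dishes come from a single clone, a change that followed the loss of PACT and a feature of that clone cannot be told apart.

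Mitochondria keep a ribosome of their own, which makes the few proteins encoded by mitochondrial DNA, all of them parts of the respiratory chain and the ATP synthase. Its rRNAs are transcribed inside the mitochondrion, whereas all of its proteins are encoded in the nucleus, made in the cytosol and imported. Some of these proteins descend from the ribosome of the bacterial ancestor and others, such as the pentatricopeptide repeat proteins, were added later and have no bacterial counterpart.

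The libraries held 19930060 to 24940838 reads on genes, of which 108956 to 148561 lay on the 79 members. PRKRA itself had 882, 809 and 866 reads in the parental libraries against 291, 331 and 243 in PACT KO (log2 fold change -1.57, standard error 0.07). Markers of luminal prostate and LNCaP cells were present in both groups: HOXB13, FOLH1, KRT8 and KRT18 had at least 8271 reads in each library, although KLK3 was lower in PACT KO cells (log2 fold change -2.50). The 3 basal epithelial and 3 leukocyte markers examined had at most 4 reads in any library. Of 4 fibroblast markers, COL1A1 was higher in PACT KO cells (log2 fold change 0.52, standard error 0.08) and COL3A1 was not called (-0.09, FDR 0.528). The others, COL1A2 with 0 reads and DCN with 0 to 6, were not tested, and the part of these markers in the results was not tested. In bulk RNA, fewer cells of a type and less RNA per cell cannot be told apart.

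The promoters of these genes share short sequences that the rule did not use. Windows of 300 bases, from 250 bases before to 50 after the annotated gene start, were available from RefSeq (GRCh38.p14) for 71 of the 79 members. For this, 6 sets of letters were searched on both strands. Matches of different sets shared bases in 1 member, an ETS and an SP1 match. The ETS letters CCGGAAG, the core read by the GABP factor, stood in 40.8% of the members' windows, against 10.7% of the windows of all 27305 genes and 19.5% of those of the 10346 protein-coding genes tested. The YY1 letters AAGATGG stood in 33.8%, against 6.06% and 7.64%. Either of these stood in 62% of members and in 25.3% of the protein-coding genes tested.

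The shares for the other letters lay closer to those of protein-coding genes. NRF1 letters (GCGCATGC) were found in 8.45% of members against 5.64% of the protein-coding genes tested, the E-box CACGTG in 8.45% against 10.3%, and the SP1 letters GGGCGG in 62% against 70.3%. The CREB letters TGACGTCA were in no member window, against 3.26% of the protein-coding genes tested. Of the 39 ETS matches 27 began within 100 bases upstream of the start, while 17 of the 25 YY1 matches began after it. These are matches of letters, not measurements of binding.

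To show this, 5 stretches of 150 bases that end at the base before the gene start are printed, 5′ to 3′ on the strand of the gene, with every searched match in capitals. MRPL20 carries a pair of ETS matches and MRPL58 carries 1 next to the start. MRPS35 and MRPL4, whose mRNAs were among those with the largest falls, carry only SP1 matches here, as does MRPS6, the single tested member with a fitted value above 0.
MRPL20, chr1:1407294-1407443, minus strand: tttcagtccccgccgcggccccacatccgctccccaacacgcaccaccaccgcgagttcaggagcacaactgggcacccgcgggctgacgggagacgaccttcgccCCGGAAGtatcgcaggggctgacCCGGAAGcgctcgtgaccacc
MRPL58, chr17:75012520-75012669, plus strand: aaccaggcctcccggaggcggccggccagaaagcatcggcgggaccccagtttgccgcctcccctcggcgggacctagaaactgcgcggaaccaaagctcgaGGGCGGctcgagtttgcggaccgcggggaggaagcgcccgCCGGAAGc
MRPS35, chr12:27710682-27710831, plus strand: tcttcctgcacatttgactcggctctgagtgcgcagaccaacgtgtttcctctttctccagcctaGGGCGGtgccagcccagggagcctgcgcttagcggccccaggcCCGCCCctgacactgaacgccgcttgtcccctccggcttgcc
MRPL4, chr19:10251801-10251950, plus strand: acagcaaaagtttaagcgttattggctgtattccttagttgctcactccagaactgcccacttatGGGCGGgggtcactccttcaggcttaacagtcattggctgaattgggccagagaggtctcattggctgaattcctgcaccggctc
MRPS6, chr21:34073428-34073577, plus strand: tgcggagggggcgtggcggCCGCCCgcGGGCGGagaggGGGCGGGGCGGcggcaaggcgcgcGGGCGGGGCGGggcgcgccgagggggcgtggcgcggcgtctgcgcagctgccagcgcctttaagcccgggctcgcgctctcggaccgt

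Many mitochondrial ribosomal protein mRNAs of both subunits were lower in PACT KO cells, by up to 23.2%. Of the 78 members with enough reads to be tested, 39 were lower by the quasi-likelihood test of edgeR at a false discovery rate (FDR) under 0.01, and 0 were higher. DESeq2 and limma-voom also called 0 higher, and 1 member was higher at an unadjusted p under 0.05. Among all 14462 genes tested, 18.8% were called lower and 15.3% higher at that threshold, against 50% and 0% of the members. More reads make a small change easier to call, and these shares were not compared at like read counts. The median log2 fold change of the members was -0.13, a fall of 8.81%, whereas the median of all genes tested was 0.00. No member passed the study's threshold for a differentially expressed gene, which adds a change of at least 1.5-fold, and no fitted change was that large. That threshold was met by 2.65% of all genes for falls and 3.07% for rises.

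The direction was shared almost throughout. In the fit, 77 of 78 members had a log2 fold change below 0, and under the other scalings, filters, tests and left-out libraries that number was never under 74. In 51 members (65.4%) each PACT KO replicate lay below each parental replicate in reads per 1000000 (CPM), and in none did each lie above; the former holds for 27.2% of all genes tested. Members took 0.609%, 0.602% and 0.596% of the reads on genes in parental cells, against 0.547%, 0.554% and 0.547% in PACT KO cells, groups that did not overlap.

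**Figure D1:**
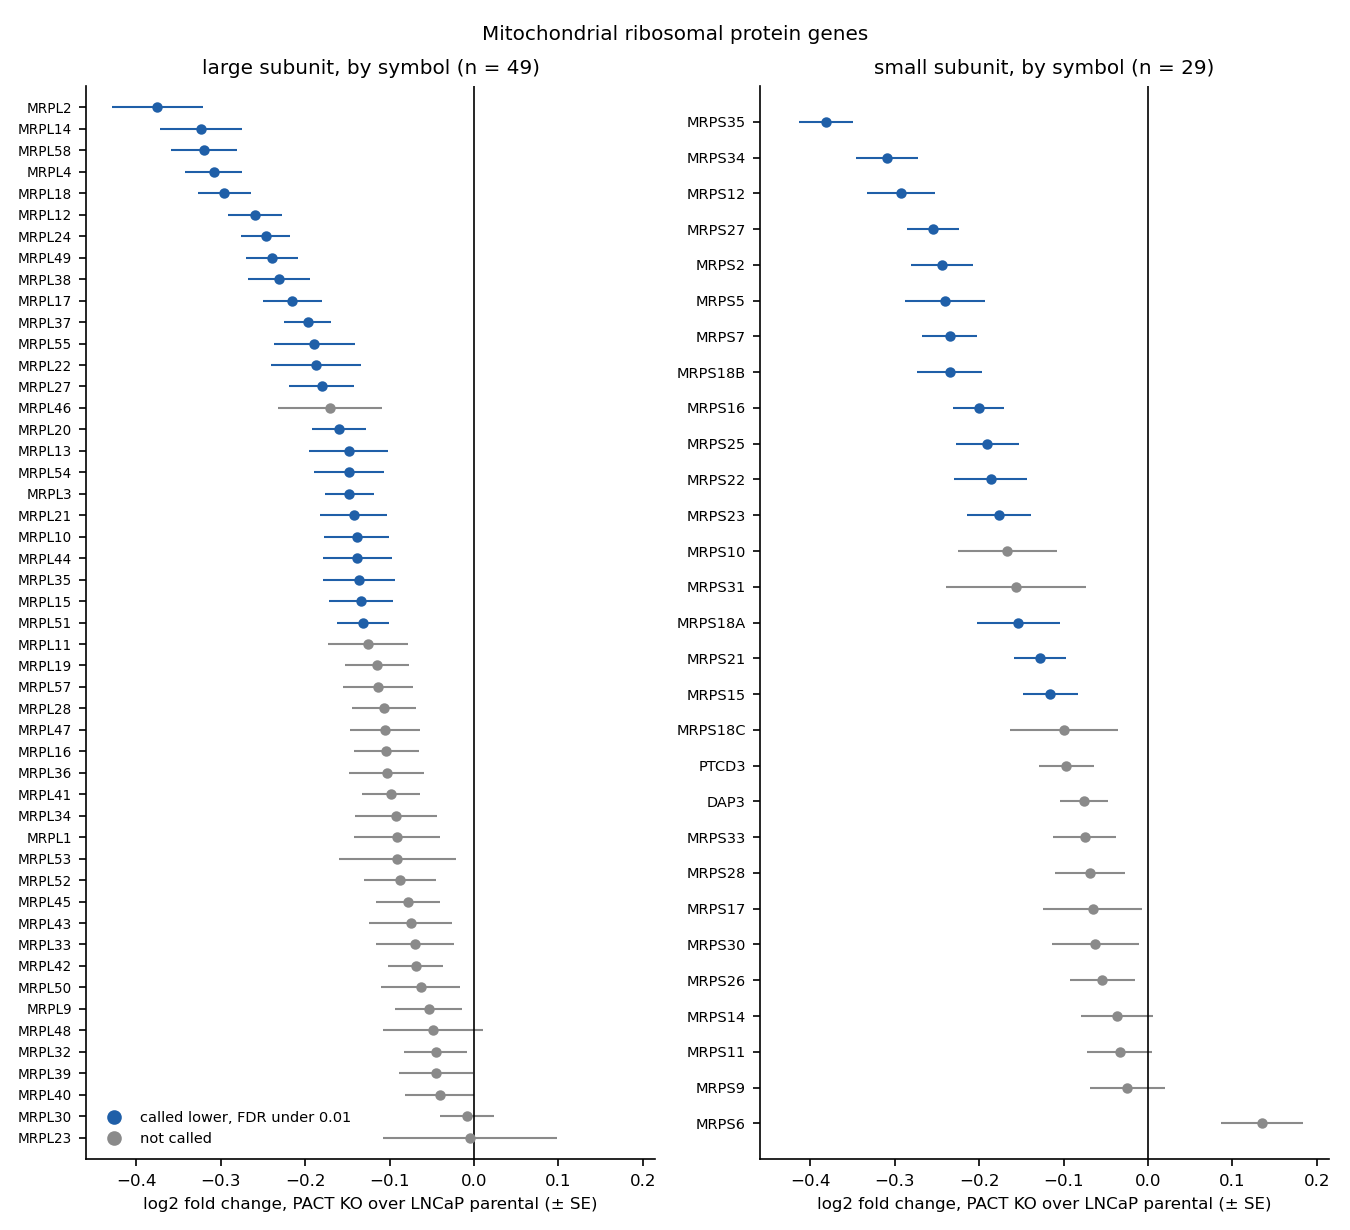
Log2 fold change of each tested member, PACT KO over LNCaP parental (x axis; bars, standard error of the fit), with 49 large subunit genes on the left and 29 small subunit genes on the right. Blue points were called lower at an FDR under 0.01 (39 genes), grey points were not called, and 77 of the 78 points lie below 0 (74 when scaled by library totals alone), from 0.14 for MRPS6 down to -0.38 for MRPS35.

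**Figure D2:**
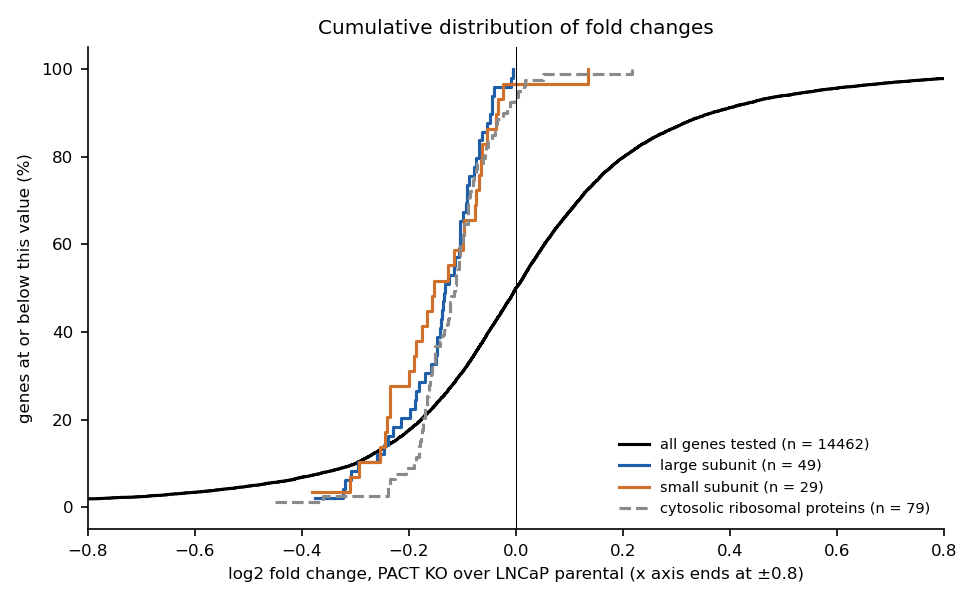
Share of genes (y axis, %) at or below each log2 fold change (x axis), for all 14462 genes tested, the large subunit, the small subunit and the cytosolic ribosomal proteins. The curves of both mitochondrial subunits lie close to each other and reach nearly 100% at 0, where the curve of all genes is near its median of 0.00.

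Large and small subunit were compared directly. In the large subunit 24 of 49 genes were called lower, with a median log2 fold change of -0.13, and in the small subunit 15 of 29 tested genes, with a median of -0.15. The large minus small difference in medians was 0.02, less than the spread of 0.03 (SD) between replicates. Summed over their genes, large subunit mRNAs had 3708, 3672 and 3611 CPM in parental cells and 3280, 3331 and 3240 CPM in PACT KO cells. Small subunit mRNAs had 2475, 2409 and 2387 CPM against 2142, 2178 and 2150 CPM. Both sums were lower without overlap, by 10.4% and 11%. Their ratio did not separate the groups: it was 1.512 ± 0.013 (SD, n = 3) in parental and 1.523 ± 0.0135 (SD, n = 3) in PACT KO cells.

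**Figure D3:**
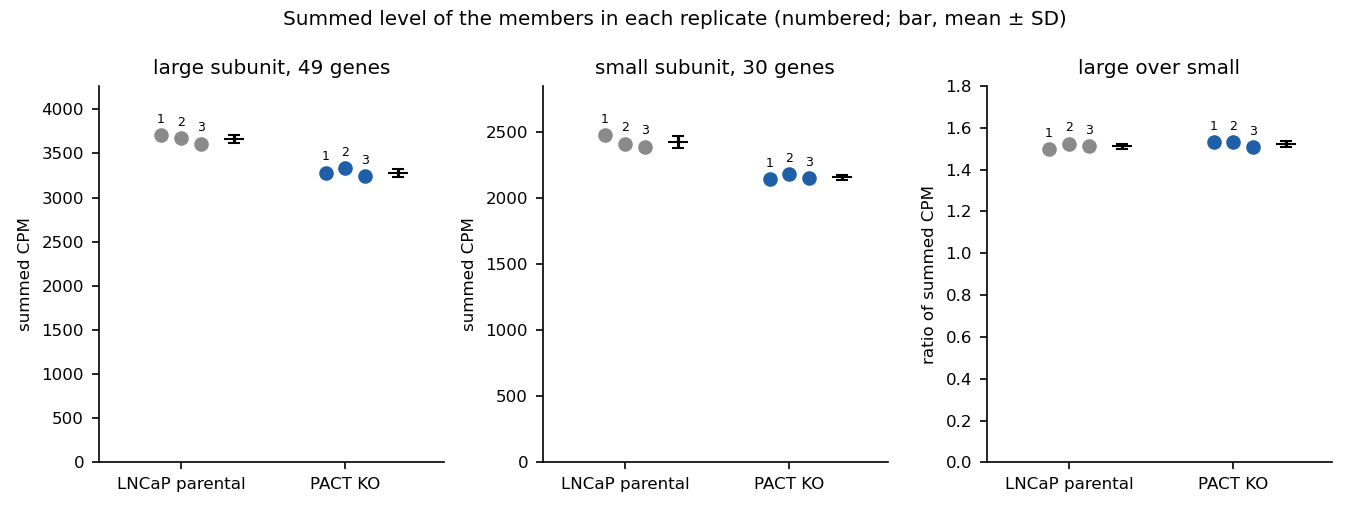
Summed level in CPM (y axis) of the 49 large subunit genes and the 30 small subunit genes, and the ratio of these sums, in each numbered replicate (bars, mean ± SD, n = 3). Each PACT KO sum lies below each parental sum, and the ratios of the groups overlap around 1.5.

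Genes for proteins classed as having a bacterial counterpart and for those classed as having none had near-equal medians. The classes put MRPS18C with the former and its paralogs MRPS18A and MRPS18B with the latter. Of 45 tested members with a bacterial counterpart 24 were called lower (median log2 fold change -0.13), and of 33 without one 15 were (median -0.13). With the proteins placed by the structure of the ribosome, which moves MRPS30 and MRPS18A to the large subunit, the medians were -0.14 for 30 large subunit genes with a bacterial counterpart, -0.10 for 21 large subunit genes without one, -0.12 for 15 small subunit genes with and -0.18 for 12 without. The last class had the lowest of these medians, although it was not tested against the others.

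In the large subunit the 5 members with the smallest p-values were MRPL18, MRPL4, MRPL24, MRPL12 and MRPL58. MRPL18 (chr6:159789812-159798429), the counterpart of a bacterial protein of the central protuberance, had 113.9, 115.8 and 114.4 CPM in parental and 92.32, 92.92 and 95.21 CPM in PACT KO replicates. The groups lay far apart for their spread (log2 fold change -0.30, standard error 0.03, FDR 6.45e-10). MRPL4 (chr19:10251951-10260055), which lines the tunnel through which the new chain leaves, had 110.6, 104.5 and 105.1 CPM against 84.51, 88.28 and 85.81 CPM. Its fall of 19.2% was larger than that of MRPL18 (18.5%) by less than their standard errors.

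MRPL24 (chr1:156737303-156742716), a protein bound early in assembly in bacteria, had 160.3, 163.1 and 157.5 CPM in parental cells and 133.7, 137.7 and 133.6 CPM in PACT KO cells (log2 fold change -0.25, FDR 7.67e-09). Its gene span overlaps that of HDGF, which also fell (log2 fold change -0.28, FDR 1.30e-11). MRPL12 (chr17:81703367-81707517) forms the flexible stalk that recruits elongation factors. Its replicates had 130.9, 127.3 and 128.4 CPM in parental against 104.9, 111.2 and 106.8 CPM in PACT KO cells, a fall of 16.5%. MRPL58 (chr17:75012670-75021261) is a peptidyl-tRNA hydrolase that became a part of the large subunit and can release stalled chains. It had 59.9, 57.76 and 59.39 CPM against 47.03, 47.45 and 47.43 CPM, so that the PACT KO replicates nearly coincided (log2 fold change -0.32, standard error 0.04).

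By size of change 2 further genes, named here after their values were seen, stood at the top of the large subunit. MRPL2, which sits near the peptidyl transferase centre, had 36.42, 40.1 and 37.47 CPM in parental and 27.85, 29.07 and 31.11 CPM in PACT KO replicates, a fall of 22.9% (FDR 2.92e-07). MRPL14, at the interface between the subunits, fell by 0.32 on the log2 scale (standard error 0.05). Both genes overlap a neighbour on the chromosome, KLC4 for MRPL2 and TMEM63B for MRPL14, and these neighbours had log2 fold changes of 0.10 (FDR 0.109) and 0.12 (FDR 0.00747). The neighbours thus lay on the other side of 0.

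In the small subunit the 5 members with the smallest p-values were MRPS35, MRPS34, MRPS27, MRPS7 and MRPS12. MRPS35 (chr12:27710832-27756295), a mitochondrial addition to the subunit, had 124.9, 121.8 and 126.7 CPM in parental and 97.26, 94.4 and 94.96 CPM in PACT KO replicates. Its log2 fold change of -0.38 (standard error 0.03, FDR 9.92e-13) was the lowest of all members. MRPS34 (chr16:1771895-1773134), also without a bacterial counterpart, had 87.51, 88.29 and 87.01 CPM against 74.63, 68.01 and 69.24 CPM, a fall of 19.3%. EME2, which overlaps MRPS34, had a log2 fold change of -0.28 (FDR 0.0582).

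MRPS27 (chr5:72219403-72320240), a pentatricopeptide repeat protein, was the most abundant small subunit mRNA, with 322.1, 297.5 and 301.3 CPM in parental and 255.5, 268.4 and 247.4 CPM in PACT KO cells (log2 fold change -0.25, FDR 9.19e-09). MRPS7, which organises the head of the subunit in bacteria, had 116.5, 119 and 113.8 CPM against 97.34, 101 and 98.23 CPM. Its PACT KO mean was 15% lower. Of the genes that overlap MRPS7, GGA3 was called lower (-0.14, FDR 0.00938) and MIF4GD was not (-0.02, FDR 0.716). MRPS12, the counterpart of the bacterial decoding centre protein S12, had 65.44, 64.38 and 60.2 CPM against 51.04, 50.98 and 53.12 CPM, 18.4% lower. None of these groups overlapped.

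The 2 members without an MRP name did not pass the threshold. DAP3, a GTP-binding protein of the small subunit first described for a role in cell death, had 199.7, 190.9 and 195.9 CPM in parental and 182.7, 186.8 and 187.2 CPM in PACT KO replicates (log2 fold change -0.08, FDR 0.0273). PTCD3, a pentatricopeptide repeat protein near the mRNA entry, had 111.6, 104.8 and 110.2 CPM against 101.6, 103.1 and 100.8 CPM (log2 fold change -0.10, FDR 0.0144). In both, the PACT KO replicates lay below all parental replicates.

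Some names do not give the place in the ribosome. MRPS30 and MRPS18A are named for the small subunit, but their proteins lie in the large one. MRPS30 had a log2 fold change of -0.06 (FDR 0.339). MRPS18A had one of -0.15 with an FDR of 0.00985, so close to the threshold that it was not called in 14 of the 15 alternative fits. Its paralog MRPS18B, a small subunit protein, had 89.71, 84.17 and 79.66 CPM in parental and 70.59, 72.98 and 71.72 CPM in PACT KO cells (log2 fold change -0.23, FDR 3.41e-06). MRPS18C, the third paralog, had 28.1, 27.61 and 26.85 CPM against 23.03, 26.68 and 27.5 CPM (log2 fold change -0.10, FDR 0.211), with overlapping groups. The gene once called MRPS36, now KGD4, encodes a part of the oxoglutarate dehydrogenase complex and was no member; its log2 fold change was -0.03 (FDR 0.776).

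MRPS6 (chr21:34073578-34143030), the counterpart of bacterial S6, was the single tested member above 0. It had 37.79, 38.62 and 35.45 CPM in parental and 41.61, 42.68 and 38.13 CPM in PACT KO replicates, groups that overlapped (log2 fold change 0.14, standard error 0.05, FDR 0.0216). In 3 of the 15 alternative fits it was called higher: with upper quartile scaling, with library totals alone and without PACT KO replicate 3. The gene span of MRPS6 contains that of SLC5A3, an inositol transporter gene, which had 2284, 2157 and 2656 reads in parental and 2240, 2264 and 1747 in PACT KO libraries (log2 fold change -0.19, FDR 3.64e-05). How reads shared by overlapping genes were assigned was not tested.

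MRPS24 was the member that failed the filter on low counts. It had 6, 7 and 1 reads in the parental and 2, 2 and 2 in the PACT KO libraries. The annotated read-through gene URGCP-MRPS24 covers it and was listed at 0 reads in all 6 libraries. No fold change is given.

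Members differed more in level than in change. Per kilobase of transcript, using the median length of the coding transcripts of each gene, the parental level ran in the large subunit from 10.9 CPM per kb for MRPL22 to 390.5 CPM per kb for MRPL49. These values depend on the lengths used, 3098.5 bases for MRPL22 and 509.5 for MRPL49. In CPM alone, other large subunit genes stood at the ends, at 7.963 and 231.6 CPM in parental cells. In the small subunit the highest was MRPS27, with 224.2 CPM per kb, and the lowest was MRPS24, a level left uncertain by the read-through gene that covers it. Next lowest was MRPS31, with 10.8 CPM per kb. MRPL49 had a log2 fold change of -0.24 (FDR 4.07e-08), and SYVN1, which overlaps it, was also called lower (-0.27, FDR 7.77e-06). MRPL22 had one of -0.19 (FDR 0.00413) that lost its call in 8 of the 15 alternative fits. Across the 78 tested members, the log2 fold change was weakly related to the mean log2 CPM (Pearson r = -0.299, Spearman rho = -0.297) and not to transcript length (Pearson r = -0.0262, Spearman rho = -0.0105). The members share libraries, so these values describe the set and carry no test, and more reads also make a small change easier to call.

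Several members overlap other genes, and the use of strand in the counting is not given in the sources used here. Gene spans of 34 members overlap another annotated gene, and 17 overlap a gene that was itself tested. Of the 61 tested members that overlap no tested gene, 30 were called lower and 0 higher, with a median log2 fold change of -0.13. Only 3 pseudogenes of these genes (MRPS31P5, MRPL42P5 and MRPL45P2) were among the rows, of 106 annotated, and together they held 128 to 214 reads per library.

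Most members lay below the genes around them on the chromosome. For each tested member, the median log2 fold change of the 20 nearest tested genes was taken. These were 10 on each side, or more from one side near a chromosome end. These neighbour medians ran from -0.25 to 0.17 with a median of -0.00, and 72 of 78 members lay below their own neighbours. Over the 78 members, Pearson r between a member and its neighbours was 0.242 and Spearman rho 0.204. MRPS35 was lowest of all members while its neighbours had a median of 0.10, whereas MRPS34 lay among neighbours with a median of -0.25. On chromosome 16, which carries MRPS34 and MRPL28, 31.4% of all tested genes were called lower.

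By chromosome, the members on 6 and 17 were called most often among those with at least 5 members. On chromosome 6, 5 of 6 members were called lower, with a median log2 fold change of -0.27 against 0.02 for all 731 tested genes there, of which 15.5% were called lower. On chromosome 17 it was 7 of 8, with -0.21 against -0.01, and 22.3% of all tested genes there were called lower. These chromosomes were picked out after their values were seen.

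Of the 70 tested members with a promoter window, 20 start within 1000 bases of a tested protein-coding gene that runs the other way and has a window itself. Genes without a window, such as TWNK beside MRPL43, could not be counted. Of these 20 partners, 9 were called lower and 1 higher, while 18.8% of all genes tested were called lower and 15.3% higher. The partners had a median log2 fold change of -0.08, against -0.14 for the members of these pairs. MRPL18 and TCP1, a chaperonin subunit gene whose start lies 210 bases away, were both called lower, at -0.30 and -0.24. In other pairs the sizes differed more. SKA3 was at -0.71 beside MRPL57 at -0.11, whereas SARS2 was at -0.03 (FDR 0.556) beside MRPS12 at -0.29. MRPL50 had a log2 fold change of -0.06 (FDR 0.279), while ZNF189, 233 bases away, was at 0.36 (FDR 2.20e-08). MRPL46 and MRPS11, members that share a promoter region, had log2 fold changes of -0.17 and -0.03, and neither was called. Each is counted as the partner of the other, so partners and members are not fully separate groups.

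Members with and without the ETS and YY1 letters were called at similar rates. Of 43 tested members with ETS or YY1 letters, 19 were called lower (44.2%), and of 27 with neither, 14 were (51.9%). The median log2 fold change was -0.13 with ETS letters and -0.12 without, and -0.15 with YY1 letters and -0.11 without.

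Transcription factors and coactivators of mitochondrial genes were compared as well, some of them named for these letters. Among the 8 tested, 4 were called lower (50%) and none higher, against 18.8% and 15.3% of all genes tested. MYC fell by 0.31 on the log2 scale (standard error 0.03). PPRC1, a coactivator related to PGC-1alpha, and ESRRA, an orphan nuclear receptor, fell by 0.30 and 0.28. PPRC1 and ESRRA are not named for any of the letters searched. The remaining called gene had the lowest log2 fold change of the list, -0.45. GABPA, which encodes the DNA-binding part of GABP, was at 0.14 (FDR 0.012) and was called higher in 5 of the 15 alternative fits. GABPB1 at -0.09 (FDR 0.223), NRF1 at -0.04 (FDR 0.614) and YY1 at 0.01 (FDR 0.838) were not called. PPARGC1A, with 4 to 10 reads per library, was not tested.

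The other nuclear genes that build or serve the mitochondrial ribosome were lower or not called. In the lists with 0 genes called higher by edgeR, DESeq2 and limma-voom also called 0, and each list had at most 1 gene higher at an unadjusted p under 0.05. Among 3 mitoribosomal proteins with other names, AURKAIP1 had 119.5, 124.1 and 114.5 CPM in parental and 98.8, 89.96 and 99.37 CPM in PACT KO cells (log2 fold change -0.31, FDR 3.47e-09). GADD45GIP1 was also called lower, at -0.31, and CHCHD1 was not (-0.05, FDR 0.391). Of 27 genes for assembly and rRNA modification, 7 were called lower and none higher, with a median of -0.06. By p-value the first were the assembly GTPase MTG1 (-0.27), RCC1L (-0.24), which takes part in the assembly of the ribosome, and the rRNA methyltransferase MRM2 (-0.27). Another rRNA methyltransferase gene, MRM3, had the lowest value (-0.34, FDR 1.97e-05). At 25.9%, this list was called lower little more often than all genes (18.8%).

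Of 15 tested translation factors, 5 were called lower (33.3%) and none higher, with a median of -0.06. Among all genes tested, 18.8% were called lower and 15.3% higher. The elongation factors TUFM, GFM1 and TSFM had log2 fold changes of -0.23, -0.26 and -0.25. Of 20 aminoacyl-tRNA synthesis genes, which charge mitochondrial tRNAs, 8 were called lower (40%) and none higher, with a median of -0.11. MARS2 was at -0.55, IARS2 at -0.27 and EARS2 at -0.20. Of 18 genes for mitochondrial DNA maintenance, transcription and RNA processing, 11 were called lower (61.1%) and none higher, with a median of -0.13. Without LNCaP parental replicate 1, 7 were called. The 11 included the DNA helicase TWNK (-0.36), and SUPV3L1 (-0.25) and PNPT1 (-0.24), the helicase and nuclease that degrade mitochondrial RNA.

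The rRNAs of the same ribosome went the other way. RNR2, the large subunit rRNA, had 17828, 17780 and 18034 CPM in parental and 24741, 22333 and 21989 CPM in PACT KO replicates (log2 fold change 0.36, standard error 0.03, FDR 3.03e-13). RNR1, the small subunit rRNA, had 1894, 1923 and 1937 CPM against 3370, 2364 and 2350 CPM. PACT KO replicate 1 stood well above the others for RNR1, and the log2 fold change of 0.49 was 0.30 without it; DESeq2 gave the gene an FDR of 0.0198. In libraries made from polyadenylated RNA these values also depend on how much of each rRNA is captured, which was not tested, and near-identical copies in the nuclear genome leave the counts uncertain. The mitochondrial mRNAs were not analysed here.

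Cytosolic ribosomal protein genes showed a change of like size. Of 79 genes tested, 55 were called lower (69.6%) and none higher, against 18.8% and 15.3% of all genes tested. Their median log2 fold change was -0.11. RPL9 had the lowest value (-0.45), and RPL21 was at -0.24. Many of these genes have near-identical pseudogenes, so single values are uncertain. The genes of the replicative helicase MCM2 to MCM7, which mark cells preparing to divide, were all called lower, with a median of -0.53, and MCM7, MCM4 and MCM5 were at -0.58, -0.57 and -0.59. The part of cell division in the members' values was not tested.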

How the data were processed

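Gene counts for 6 libraries (3 LNCaP parental, 3 PACT KO) were used as the authors deposited them: whole-number counts of reads per NCBI Gene number, not normalised. The submitters' processing notes list bcl2fastq 2.20.0.422, STAR 2.5.3a, StringTie 1.3.3 and featureCounts 1.5.3 and the build hg38; the gene annotation, and whether strand was used, are not given in the sources used here. The 1 row that names no gene (0.0688% to 0.0708% of reads) was left out. Symbols, positions and promoters came from RefSeq (GRCh38.p14), which named 92.4% of genes; transcript lengths came from GENCODE 29.

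Genes were filtered with edgeR's filterByExpr, scaled by TMM and tested across all 14462 genes left, in edgeR 4.0.16 (limma 3.58.1, R 4.3.3), with the quasi-likelihood test and Benjamini-Hochberg adjustment. CPM values use TMM-scaled library sizes. A gene was called at an FDR under 0.01. The test was checked on simulated counts with changes of 1.5-fold. Smaller changes, such as those of the members, were not part of that check. The alternatives were DESeq2 1.42.0, other tests, scalings and filters, a replicate block and each library left out. P-values measure the spread between dishes of 1 line and 1 clone, and an exact permutation test of 3 against 3 cannot go under 0.10. Depth was 19930060 to 24940838 reads per library.

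The members and lists were chosen with earlier results of these data known. By rule the text names members past 1.5-fold, the 5 called members of each subunit and direction with the smallest p-values, DAP3, PTCD3, MRPL12, MRPL58, the MRPS18 paralogs, MRPS30, the former MRPS36, the highest and lowest per length in each subunit, members failing the filter, and at most 3 called genes per list with the smallest p-values (1 of these is not reported here). MRPL2, MRPL14, MRPS6, MRPS31, MRM3, the overlapping genes, the promoter partners, the printed promoters and the unlisted factors and chromosomes were picked after their values were seen.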

Additional observations from a re-analysis of the deposited data

How the results depend on the processing

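The count of members called lower was 39 and stayed within 1.5 times that under each of the 15 alternative fits. It was 28 with DESeq2, 29 with upper quartile scaling or library totals alone, 29 to 35 with a library left out, 50 at an FDR under 0.05, and 30 when the 17 members that overlap a tested gene were left out, a choice made after seeing the data. In all 15 fits, 27 members (14 large, 13 small) were called lower. The large subunit count was 24 and fell to 15 with DESeq2. The members' median log2 fold change of -0.13 became -0.11 with upper quartile scaling and -0.10 with library totals alone, where the median of all genes was 0.02 and 0.03, and ran from -0.14 to -0.13 with a library left out. The number of members called higher was 0, but 1 (MRPS6) with upper quartile scaling, with library totals alone and at an FDR under 0.05, and 0 to 1 with a library left out. The large minus small difference of 0.02 ran from -0.0084 to 0.0296 with a library left out, and the difference between members with and without a bacterial counterpart of -0.0025 from -0.0227 to 0.0000; neither direction can be read. List genes called higher were 2, against 1 with DESeq2, 6 with upper quartile scaling, 7 with library totals alone, 5 without a filter beyond 1 count and 4 with a filter of over 1 CPM in 3 libraries; the cause was not tested. No member passed FDR under 0.01 and 1.5-fold in any fit.

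Replicate numbers are shared by the groups but do not pair the dishes: deviations of same-numbered replicates correlated at -0.0938, 0.00285 and -0.0862. With a replicate block, 35 members were called lower, 0 higher, and the median was -0.13.

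Among 1560 values of single genes under alternatives, 1458 kept their direction and side of the threshold, 93 were no longer called, 9 were newly called and 0 reversed. Depth limits single calls: the smallest fall called was 7.71% (MRPS15, 110.1 CPM in parental cells), while MRPL46 (27.3 CPM) at 11.1% was not called.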
